A study of Homo sapiens with 4 samples.

Results

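Regulators of the G2 phase and of mitosis were examined in the RPPA data of LN229 cells, an established human glioblastoma line, before and after treatment with salmon calcitonin (sCT). In RPPA, dots of cell lysate on a slide are probed with an antibody to a protein, or to a phosphorylated site on it. Antibodies were taken by name, whatever their values, for the 10 proteins Cyclin-B1, CDK1 (also called Cdc2), Cdc25C, Wee1, Myt1, PLK1, Aurora-A, Aurora-B, FOXM1 and TRIP13. This gave 13 of the 440 antibodies analysed, 9 to total proteins and 4 to phosphorylated sites. Each of the 10 proteins had at least 1 antibody, and the proteins were chosen with earlier results of these data known. Total CDK1 was not among the 440 antibodies, and CDK1 is represented by its sites T14 and Y15. The antibody to the phosphorylated activation loop of the Aurora kinases is listed for Aurora-A, Aurora-B and Aurora-C together and was counted as a member.

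There were 2 untreated samples, labelled as taken at 0 min, and 2 samples that had received sCT at 300 nM for 60 min. No other allele or agent is named in the labels for either group. The samples are described as biological duplicates, and separate cultures are not stated, so p-values measure only the spread between these samples. The control was taken at the start and not after 60 min without sCT, so sCT and the time of incubation cannot be told apart. Values are relative levels on a linear scale, and their median over the panel lies close to 1 in each sample. A level compares samples for the same antibody, and not antibodies with each other. For that reason the line could not be checked against markers of glial or other cells, such as SOX2, Vimentin, E-Cadherin and CD45, by whether they are present.

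Entry into mitosis depends on CDK1 bound to cyclin B1. Wee1 and Myt1 keep this complex inactive by phosphorylating CDK1 in its ATP-binding region, Wee1 at Y15 and Myt1 at T14 and Y15, and Cdc25C removes these phosphates. PLK1 and the Aurora kinases promote mitotic entry and then act on centrosomes, spindle and chromosomes, and FOXM1 is a transcription factor that drives many genes of G2 and mitosis, among them those of cyclin B1, PLK1 and Aurora-B. The levels of such proteins rise and fall with the cell cycle, and cultures of dividing tumour cells hold cells in every phase.

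After sCT, 7 of the 13 antibodies were lower in limma at an adjusted p of 0.05, and all 7 were to total proteins. They were Wee1, FOXM1, Aurora-A, cdc25C, Aurora-B, PLK1 and Myt1, with levels 3.07-fold to 1.39-fold lower. On the whole panel 33.6% of the antibodies were lower and 21.4% were higher at this threshold. Of the 9 total-protein antibodies 7 were lower, against 30.1% of the 352 on the panel. Of the 4 site antibodies 0 were lower, against 47.7% of the 88 on the panel, and at an unadjusted p of 0.05 in limma 0 of the 4 passed, against 53 of the 88. None of the 13 was higher in limma, also at an unadjusted p of 0.05, where 8 passed, all lower, and 275 of the 440 on the panel passed in either direction. An unequal-variance test of the linear levels called 0 of the 13 after adjustment and 4 before it, against 1 and 155 of the 440 on the panel. The median log2 fold change was -0.47 over the 13 antibodies and 0.02 over all 440. In a whole-culture lysate, fewer cells in G2 or mitosis and less of a protein in each cell cannot be told apart.

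**Figure D1:**
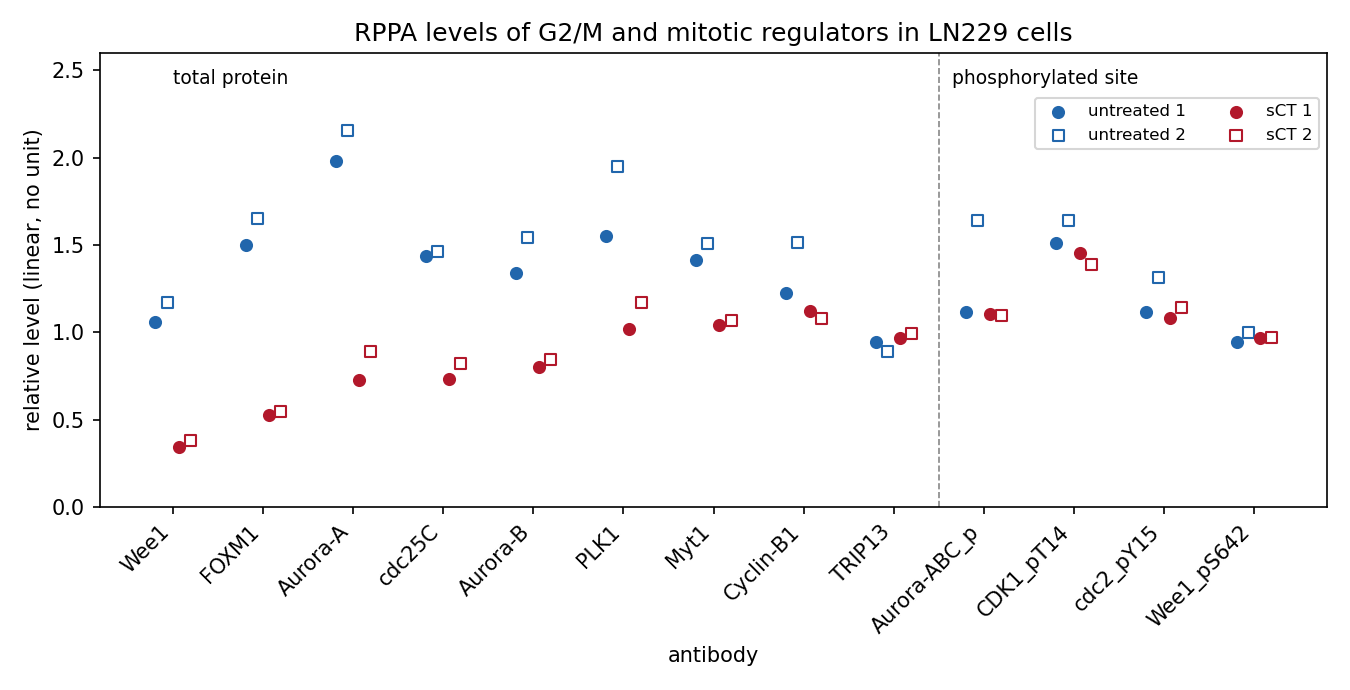
Relative level (linear, no unit) of each G2/M or mitotic antibody in the 4 samples, with untreated samples in blue and sCT-treated samples in red, circles for replicate 1 and squares for replicate 2. Aurora-ABC_p is the antibody to the shared Aurora site, and FOXM1, at 1.50 and 1.65 in untreated cells and 0.529 and 0.547 after sCT, shows the wide separation of the leftmost total proteins, while for the sites on the right the groups lie closer, apart from untreated replicate 2 of the Aurora site.

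The kinases that hold CDK1 in check both had lower levels after sCT. Wee1, the nuclear kinase for Y15, had levels of 1.06 and 1.17 in the untreated samples and 0.345 and 0.380 in the sCT-treated samples. Its log2 fold change was -1.62 (SE 0.08, adjusted p = 0.000184 from limma), which placed it 20th from the lowest of the 440 antibodies. Both treated samples lay far below both untreated samples.

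Myt1, the membrane-bound kinase for T14 and Y15, had levels of 1.42 and 1.51 in untreated cells and 1.04 and 1.07 after sCT. The log2 fold change was -0.47 (SE 0.05, adjusted p = 0.00207 from limma), and the groups did not overlap. It was the smallest of the 7 falls and the only one of them under the 0.58 log2 units that the study used as its limit for a change.

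Cdc25C, the phosphatase that opposes these kinases, was lower too. Its levels were 1.44 and 1.46 in untreated cells and 0.733 and 0.824 after sCT. On the log2 scale the change was -0.90 (SE 0.07, adjusted p = 0.000679 from limma). The untreated samples were nearly the same, and both treated samples were below them.

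The sites on CDK1 that these enzymes set showed no call. CDK1 phosphorylated at T14 had levels of 1.51 and 1.64 in untreated cells and 1.46 and 1.39 after sCT. In limma the log2 fold change was -0.15 (95% interval -0.31 to 0.01, adjusted p = 0.0987). The treated samples lay just under the untreated ones, without overlap. The scaling decided this site, which was at 0.09 (adjusted p = 0.155) under quantile normalization and at -0.27 (adjusted p = 0.0183, called) with the samples centred on loading controls.

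CDK1 phosphorylated at Y15, listed as cdc2_pY15, had levels of 1.12 and 1.31 in untreated cells and 1.09 and 1.14 after sCT, and here the groups overlapped. The log2 fold change was -0.12 (95% interval -0.36 to 0.12, adjusted p = 0.292 from limma). These intervals leave room for a small fall at either site and for falls of up to 0.36 log2 units at Y15. They also hold rises of up to 0.01 at T14 and 0.12 at Y15. The sites could not be set against total CDK1.

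Cyclin-B1, the activating partner of CDK1, had levels of 1.23 and 1.51 in untreated cells and 1.12 and 1.08 after sCT. The groups did not overlap, but the untreated samples differed from each other by more than the lower of them differed from the treated ones. On the log2 scale the change was -0.31 (SE 0.11, 95% interval -0.60 to -0.01). In limma its unadjusted p was 0.0433 and its adjusted p = 0.0720, so it was not called. Without untreated replicate 1 it was called, at -0.46 (adjusted p = 0.0119), and over the other 3 fits that left out a sample its log2 fold change was -0.33 to -0.15, with an adjusted p of up to 0.256. It was also called when the samples were centred on loading controls, at -0.43 (adjusted p = 0.0316).

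The panel antibodies whose levels followed those of Cyclin-B1 most closely over the 4 samples, by Euclidean distance between centred log2 levels and with the 13 antibodies left out, were PKC-b-II_pS660, IGFBP2, Vimentin, Coup-TFII and ATR_pS428. Their distances ran from 0.127 to 0.148 log2 units. Like Cyclin-B1, each was higher in untreated replicate 2 than in untreated replicate 1 and lower in both treated samples than in either untreated one. With 4 samples such a match is a description only.

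**Figure D2:**
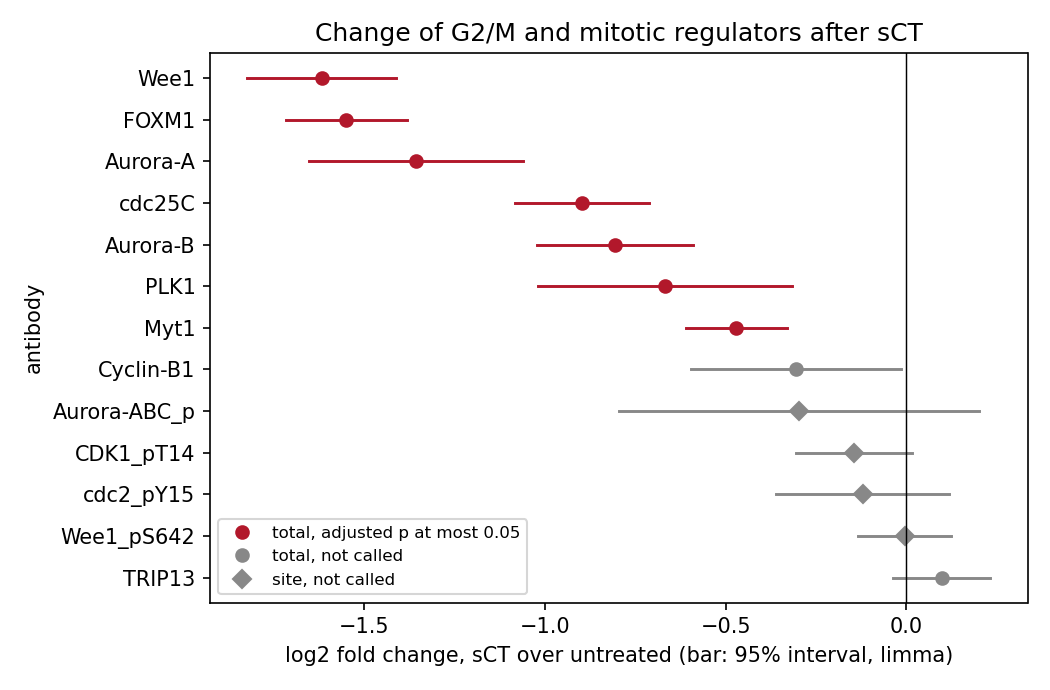
Log2 fold change of sCT-treated over untreated cells for each antibody, with 95% intervals from limma, circles for total proteins, diamonds for sites, and red for an adjusted p of at most 0.05. The 7 red intervals lie below 0, and the 4 site intervals all include 0.

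Among the mitotic kinases, Aurora-A fell the most. Aurora-A, which acts at centrosomes and spindle poles, had levels of 1.98 and 2.16 in untreated cells and 0.729 and 0.891 after sCT. In limma the log2 fold change was -1.36 (SE 0.11, adjusted p = 0.000751). Aurora-B, the kinase of the chromosomal passenger complex, had levels of 1.34 and 1.54 in untreated cells and 0.805 and 0.844 after sCT. The log2 fold change was -0.81 (SE 0.08, adjusted p = 0.00152 from limma). For both kinases all treated values were below all untreated values.

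The antibody to the activation loop site shared by Aurora-A (T288), Aurora-B (T232) and Aurora-C (T198) gave levels of 1.12 and 1.64 in untreated cells and 1.11 and 1.10 after sCT. The treated samples were close to untreated replicate 1, and only untreated replicate 2 stood apart. On the log2 scale the change was -0.30 (95% interval -0.80 to 0.20, adjusted p = 0.221 from limma), the widest interval of the 13. Without untreated replicate 1 it was called, at -0.58 (adjusted p = 0.00725), and without untreated replicate 2 the log2 fold change was -0.02, so a single sample decided this value.

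PLK1, which acts on Cdc25C, Wee1 and the centrosomes, had levels of 1.55 and 1.95 in untreated cells and 1.02 and 1.17 after sCT. In limma the log2 fold change was -0.67 (SE 0.13, adjusted p = 0.0125), and the groups did not overlap. PLK1 was the only one of the 7 whose call was lost when a sample was left out, without sCT replicate 1 (-0.57, adjusted p = 0.0830), and its log2 fold change was -0.83 to -0.50 over the 4 such fits.

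FOXM1 had levels of 1.50 and 1.65 in untreated cells and 0.529 and 0.547 after sCT. Its log2 fold change was -1.55 (SE 0.06, adjusted p = 0.000146 from limma), the lowest adjusted p of the 13, and it was 26th from the lowest on the panel. The replicates of each group lay close together relative to the distance between the groups.

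TRIP13, an ATPase that acts on the spindle checkpoint protein MAD2, had levels of 0.945 and 0.894 in untreated cells and 0.971 and 0.996 after sCT. It was the only antibody of the 13 whose treated samples both lay above the untreated ones. Its log2 fold change of 0.10 (95% interval -0.04 to 0.23, adjusted p = 0.161 from limma) did not pass the threshold, and it was -0.029 with the samples centred on loading controls.

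Ordered by log2 fold change, the members ran from Wee1, FOXM1 and Aurora-A through cdc25C, Aurora-B, PLK1 and Myt1 to Cyclin-B1, the sites and TRIP13. Between neighbours in this order the only gap over 2 SE was that between Aurora-A and cdc25C, at 0.46 log2 units (SE 0.13, taking the antibodies' errors as independent). Wee1 and FOXM1 differed by 0.07 (SE 0.10), and cdc25C and Aurora-B by 0.09 (SE 0.11), so their order is not settled. In all, 10 of the 13 antibodies had both treated samples below both untreated samples, which on the panel held for 43.0%, and for 2, cdc2_pY15 and Wee1_pS642, the groups overlapped. With a p of 0.05 before adjustment and a change of at least 0.58 log2 units, the limits in the study's figure legend, 6 of the 13 were lower, against 19.1% of the panel.

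**Figure D3:**
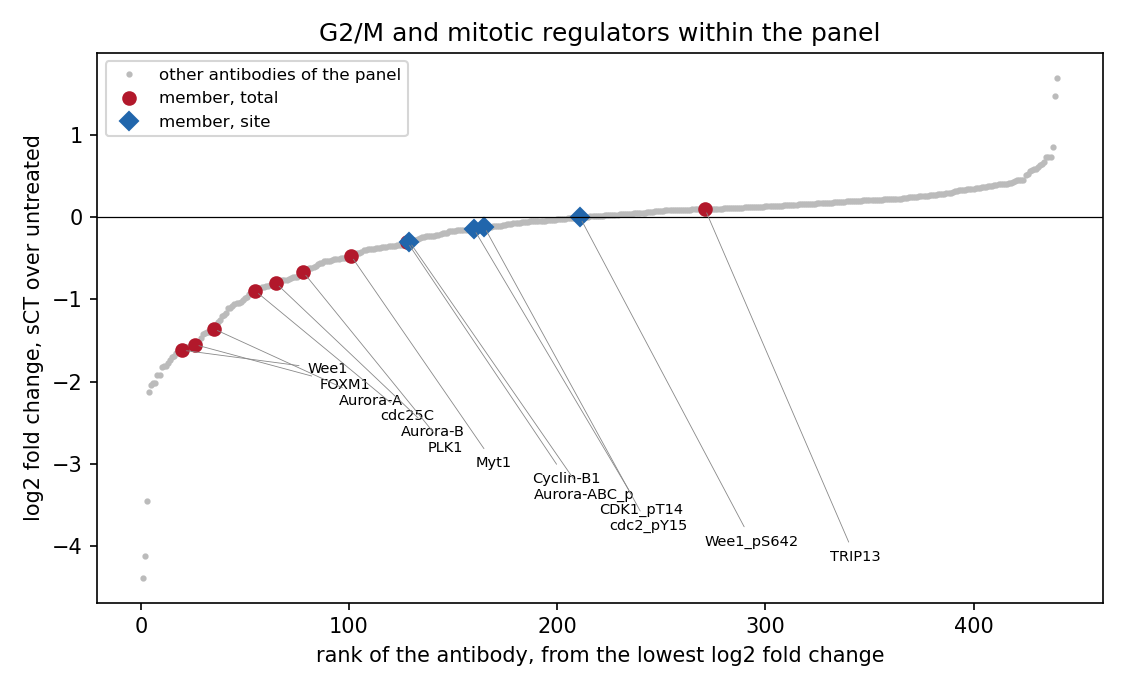
All 440 antibodies ranked by log2 fold change of sCT-treated over untreated cells (grey), with total-protein members as red circles and site members as blue diamonds. The 7 called members stand at ranks 20 to 101 from the lowest, and TRIP13 at rank 271.

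Of the 3 pairs of a site and a total protein that could be formed, Wee1 had the largest difference. The antibody to Wee1 phosphorylated at S642 had levels of 0.947 and 0.998 in untreated cells and 0.967 and 0.970 after sCT, a log2 fold change of -0.01 (95% interval -0.13 to 0.12, adjusted p = 0.926 from limma) that became 0.037 under quantile normalization, while total Wee1 was 3.07-fold lower. Within each sample, the log2 level of the site minus that of the total was -0.16 and -0.23 in untreated cells and 1.48 and 1.35 after sCT. The difference between the groups was 1.61 log2 units (exact permutation test, two-sided, p = 0.333, the smallest that 2 samples against 2 can give).

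The shared Aurora site was likewise higher relative to the total kinases after sCT. The site itself did not rise, with a log2 fold change of -0.30, beside -1.36 for total Aurora-A and -0.81 for total Aurora-B. Relative to Aurora-A, on the log2 scale, the site averaged -0.61 ± 0.31 (SD, n = 2) before and 0.45 ± 0.22 (SD, n = 2) after treatment, a difference of 1.06. Relative to Aurora-B it averaged -0.09 ± 0.25 (SD, n = 2) before and 0.42 ± 0.06 (SD, n = 2) after treatment, a difference of 0.51 that was 0.33 without untreated replicate 1 and 0.68 without untreated replicate 2. The exact two-sided permutation test gave p = 0.333 for each, and the groups did not overlap. Because the site antibody reads 3 kinases together, it cannot say which of them carried the phosphate.

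**Figure D4:**
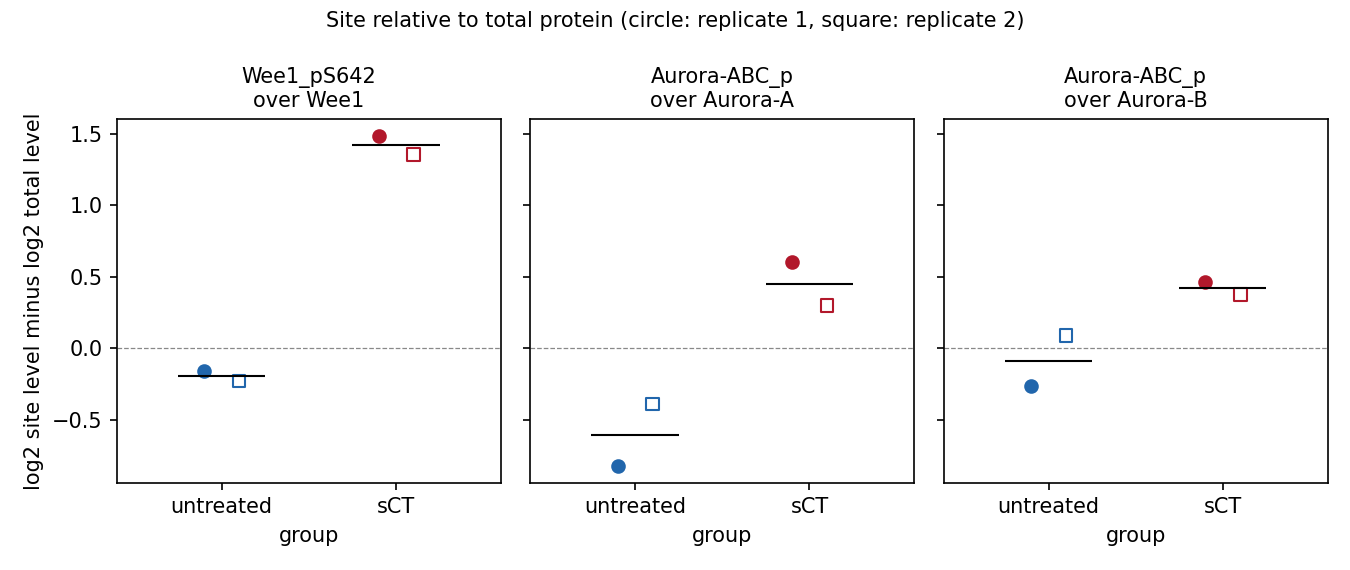
Log2 level of a phosphorylated site minus log2 level of the total protein in each sample, by group, with black lines for group means. Only differences between samples can be read, since the antibodies have no common scale, and in each panel both treated samples lie above both untreated samples.

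The untreated samples differed from each other in this group of proteins more than over the panel. Of the 13 antibodies 12 were higher in untreated replicate 2 than in untreated replicate 1, TRIP13 being the exception, against 227 of the 440 antibodies of the panel (51.6%). The median log2 difference was 0.14 over the 13 and 0.003 over the panel. It was widest for the shared Aurora site at 0.56, PLK1 at 0.33, Cyclin-B1 at 0.30 and cdc2_pY15 at 0.23. Between the sCT-treated samples the median difference was 0.05 over the 13 and 0.02 over the panel. What lies behind this was not tested. With untreated replicate 2 left out, the log2 fold change was -0.02 for the shared Aurora site and -0.15 for Cyclin-B1. With untreated replicate 1 left out, these were -0.58 and -0.46. The 7 members called in the fit of all samples ranged from -1.69 to -0.43 over the 4 fits that left out a sample.

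Some loading controls were higher after treatment. Of 7 such antibodies, b-Actin, GAPDH and HSP60 were higher after sCT at an adjusted p of 0.05 in limma and none was lower. On the whole panel 21.4% were higher and 33.6% lower. Log2 fold changes of the 7 ran from -0.15 for Histone-H3 to 0.57 for GAPDH. GAPDH had levels of 0.828 and 0.712 in untreated cells and 1.11 and 1.17 after sCT. Centring the samples on these 7 antibodies, each taken relative to its own mean, moved the panel's median by -0.13 log2 units. With this centring the same 7 members were called lower, and Cyclin-B1 and CDK1_pT14 were called lower as well, while the share of the panel called lower rose to 43.6% and 42 of the 440 were called higher. Quantile normalization kept the calls of the same 7, with smaller falls for Wee1 (-1.07) and FOXM1 (-1.13), and called 26.1% of the panel lower.

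Other cell cycle proteins were taken from 3 lists written from general knowledge, with 33 antibodies on the panel. Of these, 18 were lower and 3 higher in limma at an adjusted p of 0.05, where 33.6% of the panel was lower and 21.4% higher. The 20 to total proteins held 9 lower and 3 higher, against 106 lower and 85 higher of the 352 on the panel. The 13 to sites held 9 lower and none higher, against 42 lower and 9 higher of the 88 on the panel. At an unadjusted p of 0.05 in limma 10 of those 13 sites passed, against 53 of the 88 on the panel. All adjusted p-values that follow are from the same fit.

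The first list was the G2 checkpoint, which restrains CDK1 when DNA is damaged or unreplicated, and 7 of its 15 antibodies were lower and none higher. Chk1, a kinase that restrains Cdc25 phosphatases, had levels of 1.42 and 1.42 in untreated cells and 0.423 and 0.534 after sCT, a log2 fold change of -1.58 (adjusted p = 0.000603). Its site S345, a target of ATR, was at -0.49 (adjusted p = 0.00810, and 0.0607 without sCT replicate 2), and its site S296 was at -0.08 (adjusted p = 0.201, and called at -0.20, adjusted p = 0.0234, with loading control centring). As with Wee1, the fall on the log2 scale was larger for the total protein than for its sites, a difference that was not tested.

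For Chk2 the site was called and, on the levels as deposited, the total protein was not, and their difference was not tested. Chk2 phosphorylated at T68, a target of ATM, had levels of 1.87 and 1.87 in untreated cells and 0.873 and 0.924 after sCT (log2 fold change -1.06, adjusted p = 0.000179), while total Chk2 was at -0.15 (adjusted p = 0.0797). With loading control centring total Chk2 was called as well, at -0.27 (adjusted p = 0.0171). MDM2 phosphorylated at S166 (-1.40, adjusted p = 0.000131), the repair protein BRCA1 (-0.86, adjusted p = 0.000496), ATR phosphorylated at S428 (-0.40, adjusted p = 0.00689) and the CDK inhibitor p21 (-0.38, adjusted p = 0.00332) were lower as well. The call of ATR S428 was lost without sCT replicate 1 (adjusted p = 0.0578) or replicate 2 (0.0514), and p21 was at -0.16 (adjusted p = 0.117) under quantile normalization. The damage mark on histone H2AX, read by antibodies listed for S139 and S140, was at 0.11 and 0.26 and was not called, although with the replicate number as a block the S140 antibody was (adjusted p = 0.0232). Neither were p53 at -0.05, ATR at -0.12, ATM at 0.11 nor its site S1981 at 0.10 called. Some of these moved with the scaling: loading control centring gave calls for ATR (-0.24, adjusted p = 0.0113) and p53 (-0.18, adjusted p = 0.0377) and turned ATM to -0.015, its site to -0.025 and H2AX S139 to -0.018, and quantile normalization turned p53 to 0.10.

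The second list held mitotic partners and substrates, with 3 antibodies on the panel, of which 2 were lower and none higher. Histone H3 phosphorylated at S10, a mark of condensed mitotic chromosomes laid down by Aurora-B, had levels of 1.71 and 1.73 in untreated cells and 0.671 and 0.755 after sCT (log2 fold change -1.27, adjusted p = 0.000277). Total histone H3 was at -0.15 (adjusted p = 0.0812). The untreated samples, which differed in PLK1 and Cyclin-B1, were nearly equal in this mark.

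PRC1, a protein of the central spindle, was measured by its site T481 and had levels of 1.13 and 1.16 in untreated cells and 0.880 and 0.915 after sCT (log2 fold change -0.36, adjusted p = 0.00366). Stathmin-1, which destabilises microtubules, was at 0.01 (adjusted p = 0.793), and its groups overlapped.

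The third list held proteins of G1, S phase and DNA replication, and 9 of its 15 antibodies were lower and 3 higher. The widest changes among those called were RB phosphorylated at S807/S811 at -0.91 (adjusted p = 0.000702), total RB at -0.88 (adjusted p = 0.000294) and the licensing factor Cdc6 at -0.50 (adjusted p = 0.00378). Under quantile normalization Cdc6 was at -0.22 (adjusted p = 0.110). The 3 that rose were PCNA, the sliding clamp of DNA polymerases, Cyclin-E1, the partner of CDK2 at the start of S phase, and E2F1, a transcription factor for S-phase genes, by 0.31, 0.27 and 0.18 log2 units. PCNA was called in each fit that left out a sample. Cyclin-E1 lost its call without sCT replicate 2 (adjusted p = 0.0512), and E2F1 lost it without any 1 of the samples (adjusted p = 0.0664 to 0.140), under quantile normalization (0.0552) and with loading control centring (0.336). Without sCT replicate 1 or sCT replicate 2, fewer of the 33 antibodies of the 3 lists were called, and so were fewer over the whole panel.

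**Figure D5:**
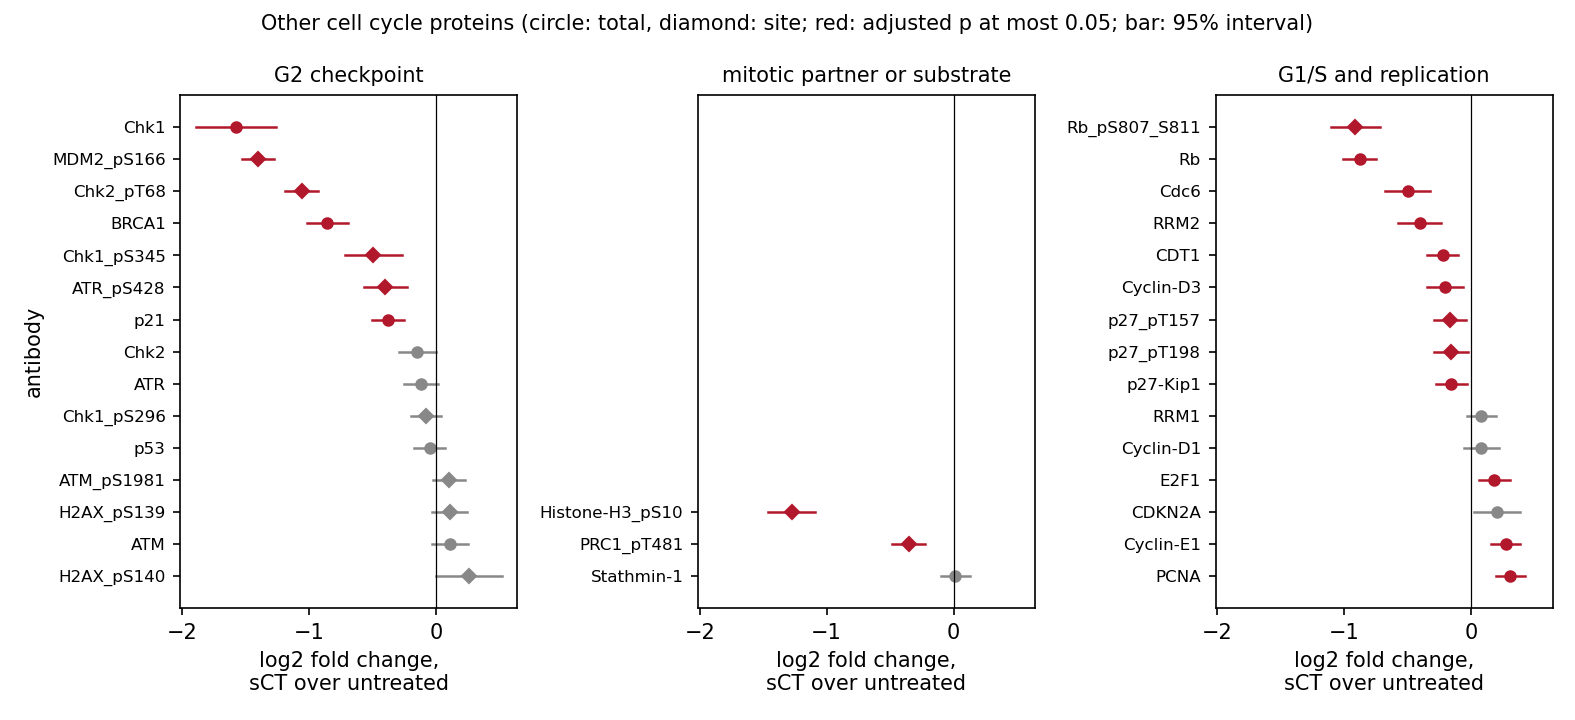
Log2 fold change of sCT-treated over untreated cells, with 95% intervals from limma, for the antibodies of the G2 checkpoint list, the mitotic partner or substrate list and the G1/S and replication list. Red marks an adjusted p of at most 0.05, and Chk1 (-1.58) and Histone-H3_pS10 (-1.27) had the lowest values of their lists.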

How the data were processed

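The authors deposited linear ratios, a relative level for each antibody and sample, with medians close to 1 over the panel. According to the methods, serial dilutions of lysate were spotted on nitrocellulose slides, probed with primary antibodies, developed with DAB and quantified as spot intensities. The steps from intensities to ratios are not given in the sources used here. Signal over background is therefore not known, and with 2 samples a group the number of samples limits the precision.

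Log2 levels, with no pseudocount since all levels were above 0, were compared between groups across all 440 antibodies. The tool was limma 3.58.1 under R 4.3.3, using lmFit and eBayes with group as the only term, two-sided, with 2 residual and 2.59 prior degrees of freedom. Benjamini-Hochberg adjustment ran over all 440, calls were made at an adjusted p of 0.05, and intervals are at 95%. For the 3 pairs among the members, sites were set against total proteins with an exact permutation test. Steps were tested on simulated data.

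The members, lists and tests were chosen with earlier results of these data known. The text names every member, the antibodies of the checkpoint and mitotic lists, the 3 widest called changes of the G1/S list and the 5 antibodies nearest to Cyclin-B1. The 3 that rose and individual loading controls were named after their values were seen. In matching the lists, p16 was read as CDKN2A, p27 as p27-Kip1 and VDAC1 as Porin. Alternatives were linear levels, quantile normalization, median centring, relative loading control centring (7 antibodies), an unequal-variance test, trended and robust eBayes, dropping the lowest 10% of antibodies by mean level, leaving out each sample, a replicate block and the limits of the study's legend.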

Additional observations from a re-analysis of the deposited data

How the results depend on the processing

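In place of 7 members, all lower, an unequal-variance test of linear levels, which differs from the limma fit in scale and in variance model, called 0 after adjustment (4 at an unadjusted p of 0.05, the panel 1 and 155), and for the 33 other cell cycle antibodies it called 0 in place of 21, 0 in either direction (13 before adjustment). With each sample left out, the members called were 6 to 9, all lower, and the other cell cycle antibodies 11 to 16, with 10 to 14 lower (18 in the fit of all samples) and 1 to 2 higher (3 in that fit). Whichever sample was left out, fewer antibodies were called over the whole panel too. The loss of calls was therefore not confined to the 33 other cell cycle antibodies. At the thresholds of the study's legend 7 of those 33 were called, 7 lower and 0 higher, against 19.1% of the panel lower. Dropping the lowest 10% of antibodies by mean level removed Wee1, and 6 of the other 12 members were called, all lower, against 27.8% of the 396 antibodies kept. Over 168 values of single members under an alternative, 13 lost or gained a call, among them each of the 7 called members under the unequal-variance test. Direction turned in 4 of the values, all of members that were not called. CDK1_pT14 was at 0.093 and Wee1_pS642 at 0.037 under quantile normalization, Wee1_pS642 between -0.043 and 0.032 with a sample left out and TRIP13 at -0.029 with relative loading control centring. In each of the 3 pairs formed among the members, the site relative to its total stayed higher after sCT under quantile normalization. Leaving out a sample could not turn this direction, since the groups did not overlap in any pair. The difference of linear levels was higher after sCT too. It cannot check this result, since the antibodies have no common scale.

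The replicate numbers were also used as a block. The deviations of same-numbered samples correlated over the antibodies (r = 0.586). LDHA weighs heavily in this r, and r was not computed without it. From replicate 1 to 2 it changed by -2.69 log2 units in untreated and -2.33 in sCT-treated samples. With 2 numbers and no label that ties them to a shared culture, the samples share only a number. With the replicate block 7 members were called, all lower, and 19 of the 33 other antibodies, 15 lower and 4 higher. On the panel this fit called 32.5% lower and 95 of the 440 higher. H2AX_pS140 gained a call and the 3 antibodies to p27 and its sites lost theirs, with no other call changed among these 46 antibodies. With signal over background unknown, the data do not show how much of a low level is background.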
